A study of Mus musculus with 6 samples.

Results

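The platelet-derived growth factor (PDGF) family was examined in sorted neural crest cells (NCCs) of mouse embryos. Its 7 genes are the ligands Pdgfa, Pdgfb, Pdgfc and Pdgfd, the receptor kinases Pdgfra and Pdgfrb, and the receptor-like gene Pdgfrl. They were selected by symbol, through the Ensembl identifiers of the count table and GENCODE M21, and all 7 were found among 46983 genes. GFP+ cells were sorted at E11.25 from control embryos (Wnt1Cre/+;BAF155flox/+;BAF170flox/+;Rosa26mTmG/+) and from BAF155/170-deficient embryos (Wnt1Cre/+;BAF155flox/flox;BAF170flox/flox;Rosa26mTmG/+). Poly(A) RNA was sequenced in 3 libraries of each genotype. Every library therefore carries Cre and at least 1 floxed copy of each gene, and the controls are heterozygous, not wild type. The methods of the study state that cells came from 3 embryos of each genotype, but nothing says that each library was a separate embryo, so the p-values measure only the spread between these libraries. Wnt1Cre is also active in the dorsal neural tube, and the sort takes any cell that has recombined the reporter.

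PDGFs are secreted dimers that bring receptor chains together at the cell surface. The paired receptor kinases then phosphorylate each other and recruit enzymes and adaptors such as PI3 kinase, phospholipase C gamma, Shc and Shp2. PDGF-A and PDGF-C act mainly on PDGFRα, which is a hallmark receptor of crest-derived mesenchyme of the face and outflow tract. PDGF-B, made by endothelium and by macrophages, acts on PDGFRβ of pericytes and vascular smooth muscle. PDGF-C and PDGF-D are secreted in a latent form and need a protease to remove their CUB domain.

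Library totals lay between 8191219 and 19808620 counts, and the control libraries were all shallower than the deficient ones. Levels are in CPM, the reads of a gene relative to a library size normalized by TMM, a method that assumes most genes do not differ. Smarcc1, which encodes BAF155, had 44.1 CPM in the controls and 26.7 CPM in the deficient libraries on average and was called lower, and Smarcc2, which encodes BAF170, had 91.5 and 85.0 CPM and was not called. Gene counts do not separate the floxed exons. In every library the macrophage markers had a higher summed level than the crest markers. The 12 macrophage markers summed to 11909.5 to 13771 CPM in the controls and to 13938 to 15219 CPM in the deficient libraries. The 18 mesenchymal crest markers summed to 54.3 to 100.5 CPM and to 27.0 to 43.2 CPM, and none of them was at 0. Sox10, from the glial crest list, averaged 4.78 CPM in the controls and 1.18 CPM in the deficient libraries and was called lower (log2 fold change −1.99). Fabp7, the glial crest marker of highest level, averaged 16.5 and 13.4 CPM and was not called. Control replicate 2 stood apart from the other controls, with the highest mesenchymal sum and an erythroid marker sum of 75.0 CPM, against 31.3 and 22.9 CPM in control replicates 1 and 3 and 17.4 to 24.5 CPM in the deficient libraries. The embryonic globin gene Hbb-y averaged 13.2 CPM in the controls and 3.06 CPM in the deficient libraries without overlap (log2 fold change −2.07, not called). Of the 9 tested erythroid markers, 5 had a negative and 4 a positive log2 fold change. Of 8 neutrophil markers, 3 were tested. S100a8 and S100a9 had log2 fold changes of 0.51 and 0.53 without overlap and were not called, while Ngp of the same list had −0.27. Such separation of the groups was found in 31.4% of all tested genes.

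Both receptor kinases were lower in the deficient libraries, while none of the tested ligands differed beyond the replicate spread. Calls followed the thresholds of the study's methods, which are an adjusted p (Benjamini-Hochberg, over all tested genes) no higher than 0.1, an absolute log2 fold change no smaller than 0.58 and a mean level of 2 CPM or more. By edgeR's quasi-likelihood test, 2 of the 6 members that passed the filter on low counts were called lower and none was called higher. Over all 13961 tested genes, 4.88% were called lower and 0.0573% higher. No member had an unadjusted p under 0.05 for a higher level, by edgeR, DESeq2 or limma-voom. Pdgfd did not pass the filter.

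**Figure D1:**
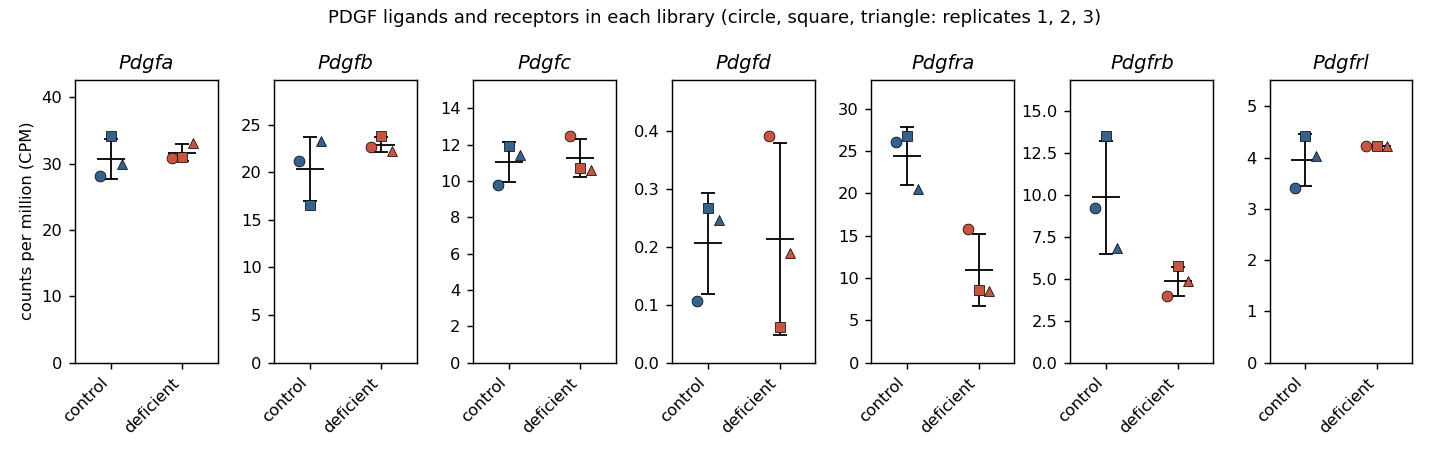
Level of each member in CPM (vertical axes, each from 0 on its own scale) in the 3 control and the 3 BAF155/170-deficient libraries; points are libraries and bars are the mean ± SD (n = 3). The deficient points of Pdgfra and Pdgfrb lie below all control points, and the groups overlap in the other 5 panels.

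Pdgfra encodes PDGFRα (ENSMUSG00000029231.15, chromosome 5 of GRCm38 from 75152292 to 75198215, plus strand). Control replicates 1 to 3 held 26.1, 26.8 and 20.5 CPM of it, against 15.8, 8.62 and 8.40 CPM for deficient replicates 1 to 3. The deficient values all lay below the control values, and deficient replicate 1 lay between the other deficient libraries and the controls. Its log2 fold change of −1.17 (standard error 0.26, edgeR with Benjamini-Hochberg adjusted p = 0.0739) put the deficient level at 0.443 of the control level. These values rest on 141 to 250 reads per library. In bulk RNA, fewer cells that express a gene and less of its RNA per cell cannot be told apart.

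Pdgfrb encodes PDGFRβ (ENSMUSG00000024620.11). Its level was 9.25, 13.5 and 6.81 CPM for control replicates 1 to 3, against 3.99, 5.74 and 4.84 CPM for deficient replicates 1 to 3. The groups did not overlap, but control replicate 3 and deficient replicate 2 were close. Its log2 fold change was −0.99 (standard error 0.25, edgeR with Benjamini-Hochberg adjusted p = 0.0728), or 0.502 of the control level, on 51 to 102 reads per library. Groups without overlap were found in 2 of the 6 tested members and in 31.4% of all tested genes.

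The direction of both receptors did not depend on a single library, but the call did. Calls over all genes, 681 lower with all libraries, depended on single libraries too. They numbered 0 without control replicate 1, 61 without control replicate 2, 182 without deficient replicate 2 and 8 without deficient replicate 3. They rose to 1221 without control replicate 3 and to 1022 without deficient replicate 1. With each library left out in turn, the log2 fold change ran from −1.52 to −1.01 for Pdgfra and from −1.22 to −0.71 for Pdgfrb. Neither gene was called when control replicate 1 was left out (adjusted p = 0.240 for Pdgfra and 0.233 for Pdgfrb by edgeR with Benjamini-Hochberg adjustment), control replicate 2 (0.236 and 0.226), deficient replicate 2 (0.138 and 0.102) or deficient replicate 3 (0.213 and 0.221), although both had an unadjusted p under 0.05 in each of these fits.

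**Figure D2:**
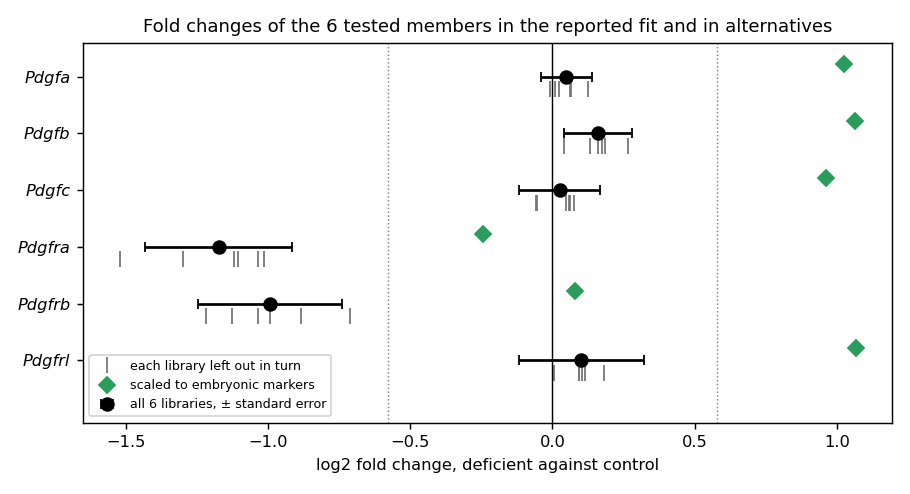
Log2 fold change of the 6 tested members, deficient against control (horizontal axis), in the fit to all libraries (circles, ± standard error), with each library left out (grey ticks) and with libraries scaled to embryonic marker genes (diamonds); dotted lines mark a log2 fold change of 0.58 in either direction. Pdgfra and Pdgfrb stand at −1.17 and −0.99 apart from the other members, which lie between 0.03 and 0.16 in the fit to all libraries, and the scaling moves all of them upward.

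Pdgfrl encodes a secreted receptor-like protein without a kinase domain (ENSMUSG00000031595.9, chromosome 8 from 40926212 to 40990785, plus strand). The controls held 3.40, 4.41 and 4.02 CPM and the deficient libraries 4.23, 4.22 and 4.23 CPM, with overlapping groups. Its log2 fold change was 0.10, with a 95% interval of −0.38 to 0.58, on 32 to 89 reads per library.

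Pdgfa encodes the A chain (ENSMUSG00000025856.15, chromosome 5 from 138976014 to 138997370, minus strand) and was the ligand of highest level. Control replicates 1 to 3 had 28.2, 34.1 and 29.9 CPM, and the values of deficient replicates 1 to 3 were 30.9, 31.0 and 33.1 CPM. The deficient values all fell within the range of the controls. The log2 fold change was 0.05, with a 95% interval of −0.15 to 0.24 (edgeR, Benjamini-Hochberg adjusted p = 0.762). An antisense gene, 6330403L08Rik, shares 26.1% of the exon bases of Pdgfa and had 277 reads over all libraries against 2483 for Pdgfa. The libraries were made with a directional kit, but the strand setting of the counting is not given in the sources used here, so reads of this pair may not be separated.

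Pdgfb encodes the B chain (ENSMUSG00000000489.6, chromosome 15 from 79995874 to 80014977, minus strand). Its values were 21.2, 16.6 and 23.2 CPM for the controls, against 22.6, 23.8 and 22.3 CPM for the deficient libraries. Control replicate 2 was the lowest library and the other 5 lay close together. The log2 fold change was 0.16, with a 95% interval of −0.10 to 0.42 (edgeR, Benjamini-Hochberg adjusted p = 0.411).

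Pdgfc encodes a latent ligand of PDGFRα (ENSMUSG00000028019.9, chromosome 3 from 81036416 to 81214040, plus strand). The controls held 9.78, 11.9 and 11.4 CPM and the deficient group held 12.5, 10.7 and 10.6 CPM. The groups overlapped, and the log2 fold change was 0.03, with a 95% interval of −0.29 to 0.34 (edgeR, Benjamini-Hochberg adjusted p = 0.931). Intervals of this width leave room for ligand changes smaller than the fold change threshold. Pdgfd, which encodes a latent ligand of PDGFRβ (ENSMUSG00000032006.14, chromosome 9 from 6168584 to 6378850, plus strand), had 1, 2 and 3 reads in the controls and 5, 1 and 4 reads in the deficient libraries. At 16 reads in all, a change was not detectable at this depth.

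The start-site sequences of Pdgfra and Pdgfc are shown because this receptor and its ligand differed in the comparison, the receptor being called lower and the ligand not. Each is the 250 bases before the start site in RefSeq (GRCm38.p6), 5′ to 3′ on the plus strand, and neither touches an annotated exon of the gene in GENCODE M21. The windows are chr5:75152001-75152250 for Pdgfra and chr3:81036166-81036415 for Pdgfc. Capitals mark a match to the Tead core motif GGAATG, searched on both strands because the study examined Yap and Tead.
Pdgfra: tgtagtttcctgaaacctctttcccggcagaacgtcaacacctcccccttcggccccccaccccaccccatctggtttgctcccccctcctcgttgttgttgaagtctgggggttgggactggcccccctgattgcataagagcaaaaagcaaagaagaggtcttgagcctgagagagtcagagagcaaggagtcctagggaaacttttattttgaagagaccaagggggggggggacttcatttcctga
Pdgfc: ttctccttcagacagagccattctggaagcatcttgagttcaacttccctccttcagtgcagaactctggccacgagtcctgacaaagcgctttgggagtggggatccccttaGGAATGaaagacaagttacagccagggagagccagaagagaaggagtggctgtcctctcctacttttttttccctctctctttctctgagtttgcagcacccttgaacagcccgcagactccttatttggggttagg
The Pdgfc window held 1 match, on the plus strand, beginning 137 bases before the start site, and the Pdgfra window held none. Of 32851 RefSeq windows of this length, 12.6% hold the motif on either strand. The CCAAT box is found in 33.8% of the windows, the GC box core GGGCGG in 32.7% and the TATA box core TATAAA in 12.4%, and none of these was in either sequence. A match describes these letters only, and its absence says only that they are not in this window. Of the 7 members, 4 had a window in the table (Pdgfa, Pdgfc, Pdgfd and Pdgfra).

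Levels of different genes were compared as CPM per kilobase of exon. In the controls Pdgfa stood highest at 9.85 ± 0.979 (SD, n = 3), followed by Pdgfb at 4.88 ± 0.816 (SD, n = 3). Pdgfra came next at 2.44 ± 0.341, then Pdgfc at 2.17 ± 0.218, Pdgfrb at 1.80 ± 0.619 and Pdgfrl at 1.26 ± 0.163 CPM per kilobase (SD, n = 3 each). Pdgfa and Pdgfb did not overlap with each other or with any other member. The control libraries of Pdgfra, Pdgfc and Pdgfrb overlapped, and so did those of Pdgfrb and Pdgfrl. Pdgfd was lowest, at 0.0655 ± 0.0278 CPM per kilobase (SD, n = 3).

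In the deficient libraries the order changed below the leading pair of ligands. Pdgfa stood at 10.2 ± 0.412, Pdgfb at 5.50 ± 0.188 and Pdgfc at 2.21 ± 0.206 CPM per kilobase (SD, n = 3 each). Pdgfrl came next at 1.35 ± 0.00219, before Pdgfra at 1.09 ± 0.421 and Pdgfrb at 0.887 ± 0.160 CPM per kilobase (SD, n = 3 each). The libraries of Pdgfrl lay inside the range of Pdgfra, and those of Pdgfra and Pdgfrb overlapped.

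**Figure D3:**
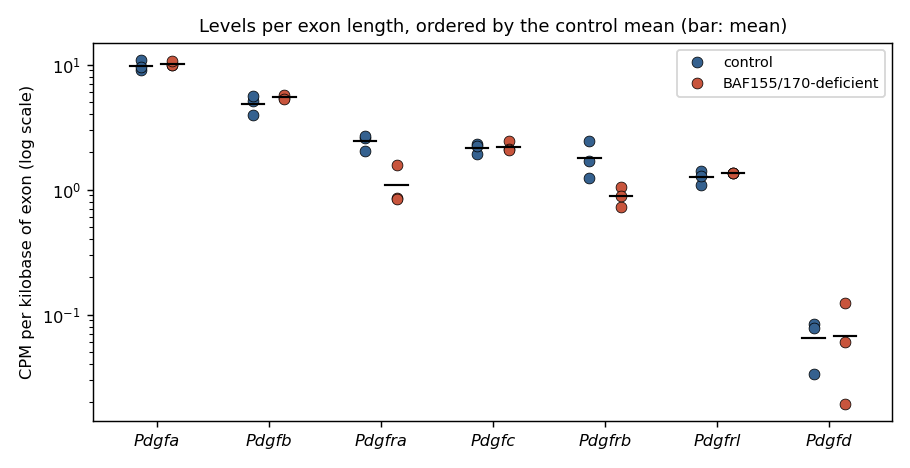
Level of each member in CPM per kilobase of exon (log scale) for the 3 control and the 3 BAF155/170-deficient libraries, with members ordered by their control mean (bars: means). Pdgfa and Pdgfb lead in both groups, and Pdgfra moves from 2.44 in the controls, the next in order, to 1.09 in the deficient libraries, below Pdgfc and Pdgfrl.

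The summed ligands exceeded the summed receptor kinases by a wider margin in the deficient group. Per kilobase, the ratio of Pdgfa, Pdgfb, Pdgfc and Pdgfd to Pdgfra and Pdgfrb was 3.75, 3.38 and 5.31 in control replicates 1 to 3 and 7.76, 9.31 and 10.5 in deficient replicates 1 to 3. The mean rose from 4.15 to 9.20 without overlap between the groups (two-sided exact permutation test, p = 0.1, the smallest that 3 against 3 libraries allow). This ratio was chosen after the members' values were seen. No tested ligand was called and both receptor kinases were lower without overlap. The ratio therefore restates the receptor levels, and its p-value is no separate evidence. Between the receptor kinases the balance did not shift beyond the spread: Pdgfra made up 58.3 ± 5.51% of their summed level in the controls and 54.0 ± 12.6% in the deficient libraries (SD, n = 3, two-sided exact permutation test, p = 0.7).

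Pdgfra was read beside the markers of mesenchymal crest, and their part in the result was not tested beyond the values given here. All 15 tested mesenchymal crest markers had a negative log2 fold change, with a median of −1.18 against −0.02 over all tested genes, and 7 of them were called lower, where 4.88% of all tested genes were. The other 8, among them Prrx2, Dlx1, Dlx2 and Hand2, were not called, but all of them except Dlx1 had a mean under 2 CPM, the limit for a call. Dlx6 passed the adjusted p (0.0455 by edgeR with Benjamini-Hochberg adjustment) at a log2 fold change of −2.54 and a mean of 0.977 CPM. Of the other embryonic lists, 2 of 5 glial crest, 2 of 6 sensory neuron, 0 of 3 autonomic and 2 of 13 neural tube markers were called lower, with medians of −1.21, −0.90, −0.80 and −0.85. The autonomic marker Gata3 passed the adjusted p (0.0625 by edgeR with Benjamini-Hochberg adjustment) at a mean of 1.45 CPM, under the limit for a call. Prrx1, the mesenchymal factor of highest level, averaged 22.5 CPM in the controls and 12.8 CPM in the deficient libraries. The log2 ratio of Pdgfra to the summed mesenchymal markers was −1.58, −1.91 and −1.40 in the controls and −1.45, −1.86 and −1.68 in the deficient libraries. The groups overlapped, with a difference of −0.04 between the means (two-sided exact permutation test, p = 0.9). By the same measure Pdgfc differed by 1.21, from −2.77 ± 0.453 in the controls to −1.57 ± 0.222 in the deficient libraries (SD, n = 3, two-sided exact permutation test, p = 0.1, the smallest possible). The log2 fold change of Pdgfc itself was 0.03, so this difference restates the lower marker sums of the deficient libraries. Those sums did not overlap between the groups, and the p-value is therefore no evidence on Pdgfc.

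For Pdgfrb the marker list was that of smooth muscle and pericytes, in which 7 of 8 tested genes had a negative log2 fold change, with a median of −0.31, and none was called. Mcam passed the adjusted p (0.0892 by edgeR with Benjamini-Hochberg adjustment) at a mean of 1.78 CPM, under the limit for a call. Notch3, which is its marker of highest level, averaged 29.1 CPM in the controls and 18.4 CPM in the deficient libraries. The log2 ratio of Pdgfrb to the summed list averaged −3.03 ± 0.324 in the controls and −3.67 ± 0.392 in the deficient libraries (SD, n = 3). Its groups did not overlap (two-sided exact permutation test, p = 0.1, the smallest possible), but control replicate 3 (−3.39) and deficient replicate 2 (−3.42) were close. Pdgfrb itself already differed without overlap, so this ratio is no separate evidence that its level was lower. Of the muscle and pericyte markers, Myh11, Cnn1, Kcnj8 and Higd1b did not pass the filter on low counts.

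**Figure D4:**
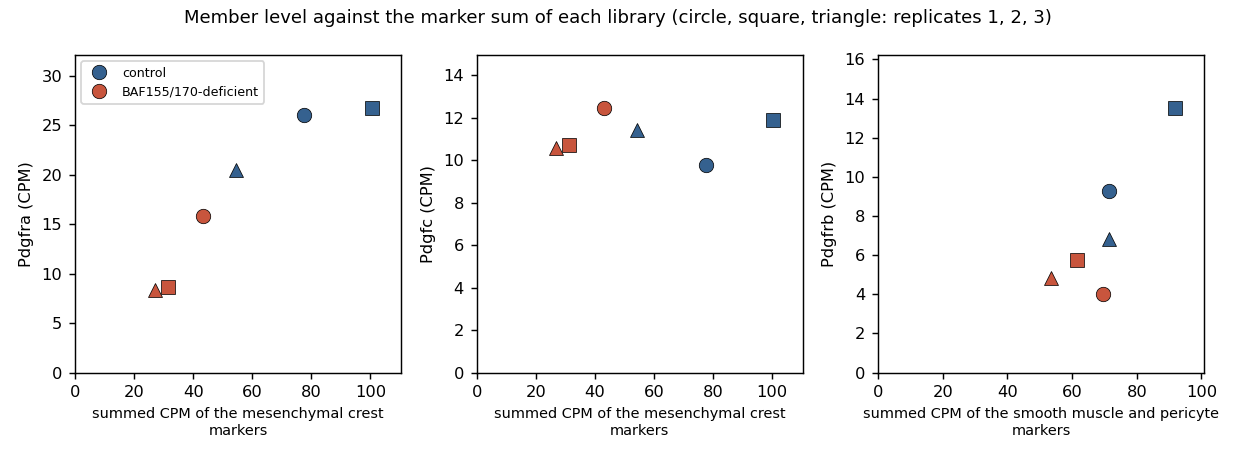
Level of Pdgfra, Pdgfc and Pdgfrb in CPM (vertical axes) against the summed CPM of the mesenchymal crest or the smooth muscle and pericyte markers (horizontal axes) in the 6 libraries. Pdgfra is low where the mesenchymal sum is low, from 8.40 CPM at a sum of 27.0 to 26.8 CPM at 100.5, while Pdgfc stays between 9.78 and 12.5 CPM.

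Ligand-producing cell types were read from their own markers. All 12 macrophage markers had a positive log2 fold change, with a median of 0.19, and none was called. Adgre1 passed the adjusted p (0.0924 by edgeR with Benjamini-Hochberg adjustment) at a log2 fold change of 0.21, short of the threshold for a call. The endothelial markers, of which 4 of 10 were tested, had a median of 0.06 and summed to 11.2 to 12.9 CPM in the controls and 11.4 to 11.7 CPM in the deficient libraries. Of the megakaryocyte and platelet markers, 2 of 8 were tested, with a median of 0.24 and sums under 10 CPM in every library. The source of the ligand RNA was not tested.

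When libraries were scaled to the median level of 29 embryonic marker genes in place of TMM, the median log2 fold change of all genes moved from −0.02 to 0.94. Under that scaling Pdgfra had a log2 fold change of −0.24 and Pdgfrb of 0.08, while Pdgfa, Pdgfb, Pdgfc and Pdgfrl were called higher, with log2 fold changes between 0.96 and 1.07, close to the shift of all genes. The scaling removes any change that the markers share.

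The genes with the profile most like that of Pdgfra over the 6 libraries were Hells, a chromatin remodeling helicase, Zfp266, a zinc finger gene, and Strbp, an RNA-binding protein gene. The root-mean-square difference between centred log2 CPM profiles was 0.0760 for Hells, 0.0894 for Zfp266 and 0.101 for Strbp, against a median of 0.699 over all genes compared. Hells and Strbp were called lower as well. For Pdgfrb the nearest profiles were those of Podxl2 at 0.110, Reep1 at 0.125 and Zfr2 at 0.140, against a median of 0.596. Both selections were made from all genes with a mean of at least 2 CPM over 6 libraries, and they describe likeness of level only.

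Downstream and upstream genes of the pathway were read from 4 lists of ligand processing, receptor signal relay, receptor shutdown and response genes. Of their 87 genes, 85 were tested, 5 were called lower by edgeR (5.88%, against 4.88% of all tested genes). DESeq2 called 6 lower and limma-voom 5, which did not include Bcar1. None was called higher by any of these tools. The median log2 fold change over the 85 genes was 0.05. Groups without overlap were found in 50.6% of them, against 31.4% of all tested genes. Without the fold change and level thresholds, 11 genes passed the adjusted p on the higher side and 8 on the lower side (edgeR). Over all 13961 tested genes, 583 passed on the higher side and 1082 on the lower side. By an unadjusted p under 0.05, 22 genes were higher and 12 lower, against 1684 and 2129 over all tested genes (edgeR). Of the 5 genes called lower, 0 were called when control replicate 1, control replicate 2 or deficient replicate 3 was left out, 2 without deficient replicate 1 and 1 without deficient replicate 2.

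Among 39 tested genes of the signal relay, 3 were called lower. Pik3r3, a regulatory subunit of PI3 kinase, averaged 16.0 CPM in the controls and 7.32 CPM in the deficient libraries (log2 fold change −1.13, edgeR Benjamini-Hochberg adjusted p = 0.0483). Shc2, a member of the Shc adaptor family, went from 6.83 to 3.71 CPM (log2 fold change −0.88) and Bcar1, a docking protein of focal adhesions, from 8.30 to 4.93 CPM (log2 fold change −0.74). The call of Bcar1, at an adjusted p of 0.0987 by edgeR with Benjamini-Hochberg adjustment, was lost with limma-voom (0.120), with a filter of 2 CPM in 3 libraries (0.109) and without any single library other than control replicate 3 (0.102 to 0.316). The median of the relay list was 0.03, with 16 genes below 0 and 23 above. Of the direct receptor partners, Grb2, Ptpn11 (Shp2) and Shc1 had log2 fold changes of 0.18, −0.12 and 0.01 and were not called. Plcg1, which encodes phospholipase C gamma, averaged 27.8 CPM in the controls and 16.7 CPM in the deficient libraries without overlap, at a log2 fold change of −0.74, and did not pass the test (edgeR, Benjamini-Hochberg adjusted p = 0.134). Pik3ca, a catalytic subunit of PI3 kinase, passed the adjusted p (0.0719 by the same test) at a log2 fold change of −0.33, short of the threshold for a call. In the relay list 4 genes passed the adjusted p on the lower side and 3 on the higher side. The latter were Akt2, Stat3 and Stat5a, at log2 fold changes of 0.22, 0.22 and 0.20 (0.0785, 0.0842 and 0.0965 by the same test). They too fell short of the threshold for a call. The relay genes named here beyond the 3 called ones were chosen after their values were seen.

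Of the 11 tested genes of ligand processing and binding, Col1a1, a collagen chain that is also abundant in mesenchyme, was called lower, from 63.4 to 38.5 CPM (log2 fold change −0.71). Furin, which cleaves the A and B chains, and Plat, which activates PDGF-C, had log2 fold changes of 0.23 and −0.56 and were not called, although Furin passed the adjusted p (0.0888 by edgeR with Benjamini-Hochberg adjustment). Both were picked after their values were seen. Of 18 genes of receptor shutdown none was called. Spry4, a Sprouty inhibitor of receptor kinase signaling, had the lowest adjusted p of that list (0.0775 by edgeR with Benjamini-Hochberg adjustment), at a log2 fold change of −2.11, but its mean of 0.798 CPM was under the limit for a call. Spred1 and Ptprj of that list passed the adjusted p on the higher side (0.0828 and 0.0924 by the same test). Their log2 fold changes of 0.20 each were short of the threshold for a call. Of 19 tested response genes, Egr1, an immediate early transcription factor, was called lower, from 6.18 to 3.46 CPM (log2 fold change −0.82). The response list as a whole had a median of 0.14, with 5 genes below 0 and 14 above. Junb, Ier3, Tiparp and Ptgs2 passed the adjusted p on the higher side (0.0901, 0.0960, 0.0830 and 0.0856 by edgeR with Benjamini-Hochberg adjustment). Their log2 fold changes of 0.20 to 0.23 were short of the threshold for a call.

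**Figure D5:**
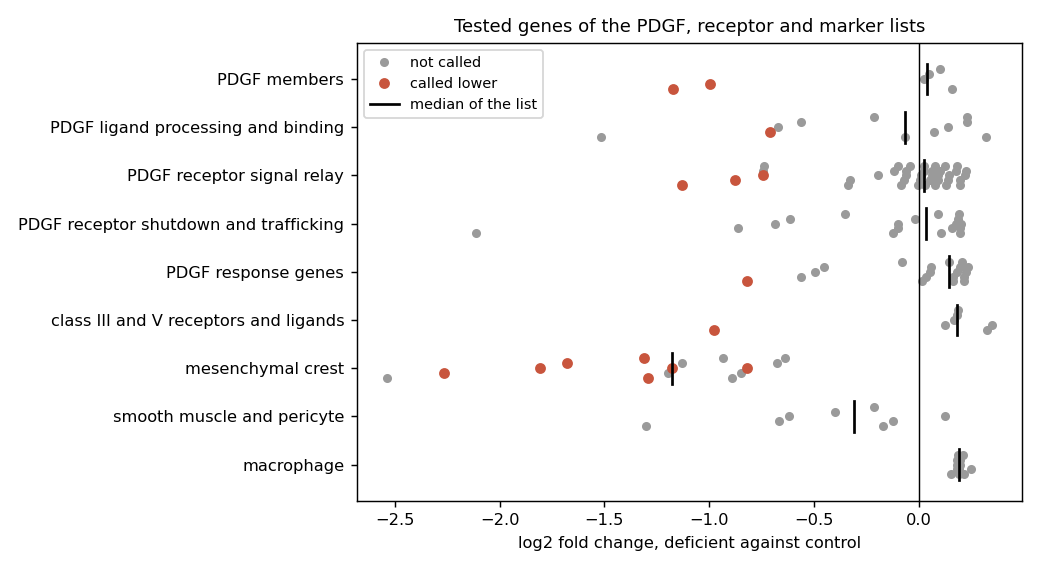
Log2 fold change, deficient against control (horizontal axis), of every tested gene of the PDGF members, 4 pathway lists, the related receptors and 3 marker lists; points are genes, red where called lower, and black bars are medians. The medians of the pathway lists lie between −0.07 and 0.14, that of the mesenchymal markers at −1.18 and that of the macrophage markers at 0.19.

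Relatives of the PDGF receptors and ligands were read in the same way. Of 7 tested genes of class III and V receptor kinases and their ligands, Kit, the stem cell factor receptor, was the only one called, lower, from 4.50 to 2.26 CPM (log2 fold change −0.98), where 4.88% of all tested genes were called lower. It was no longer called when control replicate 1 was left out (adjusted p = 0.247 by edgeR with Benjamini-Hochberg adjustment), nor for control replicate 2 (0.241), deficient replicate 2 (0.136) or deficient replicate 3 (0.250). The macrophage receptor Csf1r, chosen after its values were seen, averaged 387 CPM in the controls and 440 CPM in the deficient libraries, and the list had a median of 0.18. None of the 4 tested VEGF family ligands was called. Vegfc, a lymphatic growth factor, had the lowest adjusted p among them (0.309 by edgeR with Benjamini-Hochberg adjustment), with a log2 fold change of −0.56. It ran from −0.23 without control replicate 1 to −0.85 without control replicate 3, where it passed the call (adjusted p = 0.0964 by the same test).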

How the data were processed

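Poly(A) RNA of sorted GFP+ cells was sequenced in 6 libraries. In the authors' pipeline, adapter-trimmed read pairs were mapped by STAR (GRCm38) and counted per gene by featureCounts; the submitters' processing notes also name FastQC 0.11.7, cutadapt 1.18 and limma. The deposited values are raw counts per gene, with no normalization. The annotation release and the strand setting are not given in the sources used here. Identifiers were matched to GENCODE M21 without their version (46488 of 46983 named), and exon lengths are unions of its exons. Counts were filtered with filterByExpr (minimum count 10, minimum total 15), normalized by TMM and tested with edgeR 4.0.16 in R 4.3.3, with condition as the only term. The thresholds were an adjusted p of 0.1, a log2 fold change of 0.58 and 2 CPM, and log2 CPM used a prior count of 2. Intervals at 95% come from the quasi-likelihood F statistic and its degrees of freedom. Counting precision is set by the reads per gene given in the text. Alternatives were DESeq2 1.42.0, limma-voom (limma 3.58.1) with and without sample weights, other scalings, filters and thresholds, a replicate block and each library left out with the tested genes held fixed. The procedure was also run on simulated data, with changes larger than those of the receptors and the same dispersion for every gene. That run does not bear on calls of smaller changes. Replicates differed by more than sampling noise. Named genes were all members, the called genes of each pathway list (at most 3 in each direction, otherwise the gene of lowest adjusted p), the marker of highest mean and the 3 nearest profiles of Pdgfra and Pdgfrb. Sox10, Mcam, Gata3, Ngp, Furin, Plat, Grb2, Ptpn11, Shc1, Plcg1, Pik3ca, Csf1r and the uncalled mesenchymal markers fall outside this rule or were added to it after their values were seen. The same holds for Akt2, Stat3, Stat5a, Spred1, Ptprj, Junb, Ier3, Tiparp, Ptgs2, Adgre1 and S100a9. Members and lists were chosen with earlier results of these data known. Figures were drawn with Python 3.11.15 and matplotlib 3.10.9.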

Additional observations from a re-analysis of the deposited data

How the results depend on the processing

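Calls depended more on the settings than directions did. The 2 receptor calls were held by DESeq2, limma-voom with and without sample weights, library totals, both other filters, the length correction and the replicate block. With an adjusted p of 0.05, 0 members were called. With scaling to embryonic markers, 0 members were called lower and 4 higher, Pdgfra had −0.24 and Pdgfrb reversed to 0.079, as did Col1a1 (0.32), Shc2 (0.11), Bcar1 (0.26), Egr1 (0.20), Vegfc (0.50) and Kit (0.044), while the median of all genes moved to 0.94. Its pathway calls were 0 lower and 60 higher, and its calls over all genes 27 lower and 7680 higher. Leaving out a library gave 0 to 2 members called lower, 0 to 7 pathway genes called lower (0 when control replicate 1, control replicate 2 or deficient replicate 3 was absent, 2 in the fit lacking deficient replicate 1 and 1 in the fit lacking deficient replicate 2), and 0 to 1221 genes lower and 0 to 39 higher over all genes (681 and 8 with all libraries). The log2 fold change then ran from −1.52 to −1.01 for Pdgfra, from −1.22 to −0.71 for Pdgfrb, from −0.0083 to 0.13 for Pdgfa, which reversed without control replicate 1, and from −0.057 to 0.077 for Pdgfc, which reversed without control replicate 1 or deficient replicate 1. It ran from 0.042 to 0.26 for Pdgfb and from 0.0068 to 0.18 for Pdgfrl. Pdgfc also reversed, to −0.0027, with the filter of 2 CPM in 3 libraries; the cause was not tested. Pathway genes called lower numbered 8 with limma-voom sample weights, 1 at an adjusted p of 0.05 and 8 (with 11 higher) at an adjusted p of 0.1 alone. Over all genes the lower and higher calls were 1251 and 27 with sample weights, 94 and 0 at an adjusted p of 0.05 (edgeR, with 1684 genes higher at an unadjusted p of 0.05), and 1082 and 583 at 0.1 alone. Higher calls numbered 15 with DESeq2, 33 with no filter and 3 with the stricter filter. The labels do not say whether the replicate numbers pair the samples, and these values do not settle it. Same-numbered deviations correlated at 0.0415, −0.0667 and 0.381, and differently numbered ones at −0.412 to 0.374. The replicate block called 1143 genes lower and 21 higher, against 681 and 8 without it. Leaving out a library moved the log2 ratio to markers to between −0.18 and 0.08 for Pdgfra, 1.05 and 1.47 for Pdgfc and −0.82 and −0.41 for Pdgfrb. Depth limits Pdgfd, at 1 to 5 reads per library.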
